A study of Mus musculus with 6 samples.

Results

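The locus described here is a 24 kb stretch of mouse chromosome 7 (GRCm38) where the annotated ends of Il4i1 (44836288 to 44840809) and Tbc1d17 (44840776 to 44849079) meet and overlap by 34 bp. Its members are the CpG positions, counted on each strand, that had at least 10 reads in all 6 libraries, and 79 of the 1463044 such positions of the series lie in it, from 44831108 to 44854999. The shared gene end, taken as the overlap and the 1 kb on either side of it, held 11 of them and the rest of the locus 68. The assay was ERRBS, an enhanced form of reduced representation bisulfite sequencing, in which genomic DNA is cut with MspI at CCGG and the bisulfite-treated fragments are sequenced. The libraries were made from germinal centre B cells isolated from the spleens of C57BL/6 mice, 3 of them labelled TET2 Wild-Type (WT) and 3 TET2 Knock-Out (KO). The sources used here do not give how the Tet2 allele was made, whether a Cre line was used, the age and immunisation of the mice, how the cells were sorted, or whether animals were pooled.

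TET enzymes oxidise 5-methylcytosine, a step on the way to its removal, and bisulfite reads the first oxidation product, 5-hydroxymethylcytosine, as methylated. CpG-dense promoters are usually unmethylated, and the bodies of expressed genes are usually methylated, with lower levels at active regulatory elements. Il4i1 encodes a secreted oxidase of aromatic amino acids that was found as a gene induced by interleukin-4 in B cells. Tbc1d17 encodes a TBC-domain protein that switches off Rab GTPases, the organisers of vesicle traffic. The locus was chosen because its shared end and a tile in Tbc1d17 had differed between KO and WT in these same libraries. Differences between the groups in the locus are therefore given as a description. Calls from a fit across the whole genome are also given for its members, and since the same contrast chose the locus they are not independent support.

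As background for the libraries, coverage summed over the listed CpG positions, which counts a read once at each CpG it spans, was 174375503 to 203863392 per library, and mean coverage over the shared 1463044 positions was 115 to 137 reads. Within Tet2 (chromosome 3, 133463677 to 133545136), 6 positions from 133486189 to 133486297 had 32 to 168 reads in each WT library and were absent from the 3 KO lists, whereas 0 positions showed the reverse. The cell type label could not be checked from marker genes, since the CpG-denser ends of 4 covered B-cell genes ranged from 0.225% to 84.5% in WT, and those of the T-cell genes Cd4 and Cd3d lay between 0.546% and 1.27%. The covered myeloid gene, Csf1r, was at 81.4% in WT and 89.1% in KO. Each library pools many cells, so that a smaller share of methylated cells and fewer methylated alleles per cell cannot be told apart.

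The annotation gives 5 protein-coding genes in the window. Besides Il4i1 and Tbc1d17 these are Nup62, a nuclear pore protein gene that ends at 44831836, Il4i1b, a transcript unit from 44816370 to 44840804 that contains all but the last bases of Il4i1, and Akt1s1, a gene of the mTOR pathway that starts at 44849224. The microRNA gene Mir707 also lies in it and had no covered position. Reads over Il4i1 therefore also lie in Il4i1b. The RefSeq promoter table places the start of Il4i1 on the plus strand, so the shared end is the 3′ end of Il4i1. The strand of Tbc1d17 and the exons of either gene were not used here, so positions are placed within genes and not within exons, introns or UTRs.

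The start of Il4i1 itself had no value in any library. Its upstream 250 bases (chr7:44836038-44836287, plus strand, RefSeq, GRCm38.p6) are shown because they are the stretch where a methylation measurement of the Il4i1 promoter would lie, with CpGs in capitals.
Il4i1 promoter: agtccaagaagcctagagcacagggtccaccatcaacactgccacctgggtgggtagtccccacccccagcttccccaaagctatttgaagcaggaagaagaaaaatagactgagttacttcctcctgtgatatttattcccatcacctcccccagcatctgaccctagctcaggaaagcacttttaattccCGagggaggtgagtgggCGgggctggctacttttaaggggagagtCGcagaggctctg
The sequence holds 3 CpGs and 0 copies of CCGG, the MspI motif, which reads the same on both strands. Among 32851 RefSeq promoters cut to the same length, 47.1% held CCGG. A covered CpG was found in 75.1% of those with the motif and in 0.454% of those without it. Nothing in these data bears on methylation at the start of Il4i1, and 8250 bp separate the only position before it, at 44831108, from the next, at 44839358.

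**Figure D1:**
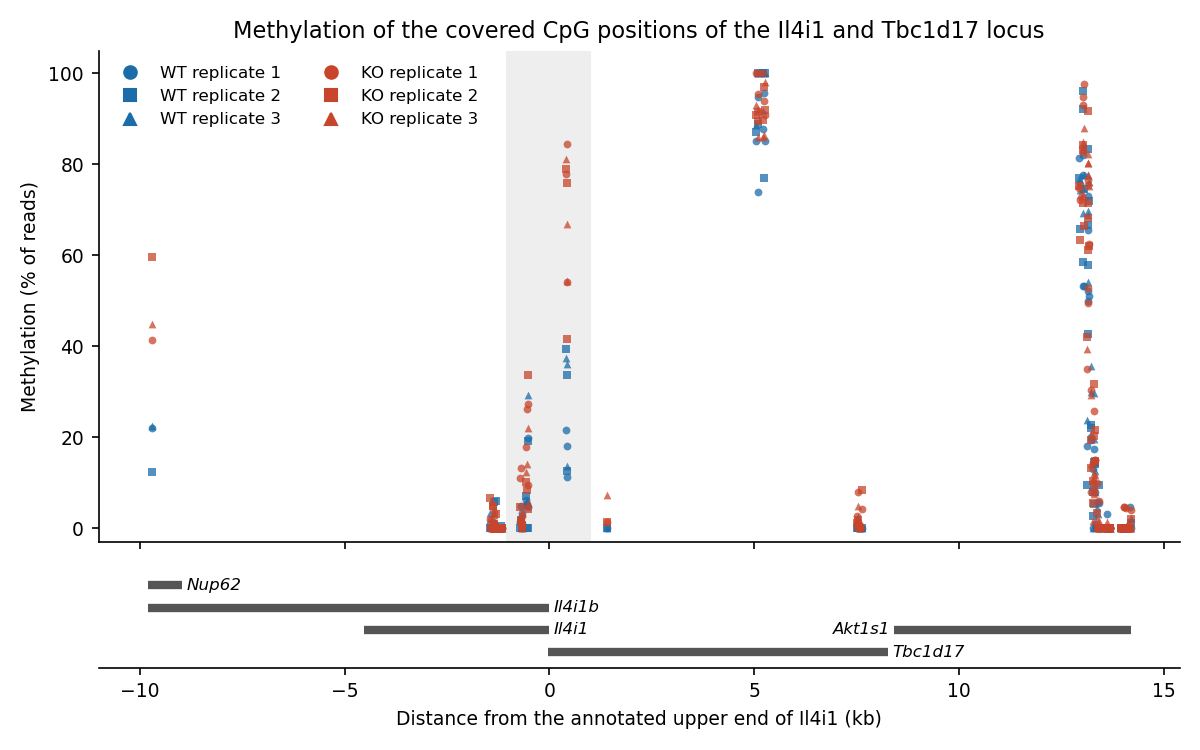
Methylation of each of the 79 positions (percent of reads, vertical axis) against distance from the annotated upper end of Il4i1 (kb), with blue for WT, red for KO and symbols for the replicate. The grey band is the shared end and the bars below are annotated genes within the window. The largest separation of colours inside the band lies just to the right of zero, within Tbc1d17.

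At the shared end the reads of all 11 positions, added up, were methylated at 8.86%, 8.42% and 11.9% in WT replicates 1, 2 and 3 and at 29.7%, 29.8% and 24.1% in KO replicates 1, 2 and 3. The means were 9.73% ± 1.91 and 27.9% ± 3.24 (SD, n = 3 each), a difference of 18.1 points with a standard error of 2.17. Every KO library lay above every WT library, an order also found at 14.9% of the 3708 gene ends tested across the genome. That sum joins unlike stretches, however. On the Il4i1 side 8 positions (44840100 to 44840295) had 4.93% ± 1.17 in WT against 9.37% ± 3.38 in KO. On the Tbc1d17 side 3 positions (44841218 to 44841243) had 24.9% ± 6.83 against 68.4% ± 3.29 (SD, n = 3 each). The differences were 4.44 points (standard error 2.07) and 43.4 points (standard error 4.38). Without KO replicate 1, the highest library on the Il4i1 side, they were 2.50 and 41.6 points. The name "shared gene end" thus covers a large difference inside Tbc1d17, 409 to 434 bp from the annotated end of Il4i1, and a small difference inside Il4i1. The summed values also depend on how the coverage of each library splits between the sides. KO replicate 2 was the lowest KO library on each side, at 7.06% and 65.5%, yet its sum of 29.8% was the highest. On the Tbc1d17 side it had the most reads per position of all libraries, and WT replicate 2 the fewest. With CpGs weighted equally the difference was 15.1 points.

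The 11 positions do not stand for 11 separate measurements. Positions on the same strand, within 50 bp of each other and with coverage within 10% in every library, were taken as carried by the same reads, and by that rule the shared end rests on 3 sets of reads. On the Il4i1 side 4 plus-strand and 4 minus-strand positions form a set each, and the 3 Tbc1d17 positions, all on the plus strand, form the third set. No CpG of the shared end was read on both strands in all libraries.

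The Tbc1d17 set carried 149 to 152 reads in WT replicate 1, 71 in WT replicate 2, 122 to 123 in WT replicate 3, 103 to 107 in KO replicate 1, 187 to 190 in KO replicate 2 and 124 to 127 in KO replicate 3. At 44841218 methylation was 21.7%, 39.4% and 37.4% in WT replicates 1, 2 and 3 and 77.9%, 78.9% and 81.1% in KO replicates 1, 2 and 3. At 44841234 it was 18.1%, 33.8% and 36.1% in WT and 84.5%, 75.9% and 66.9% in KO. All 3 KO libraries were high at both positions, and WT replicate 1 was the lowest of the 6 libraries at each. At 44841243 methylation was 11.3%, 12.7% and 13.8% in WT and 54.2%, 41.6% and 54.4% in KO. The groups did not overlap at any of the 3 positions. The WT value closest to KO at 44841218, 39.4% in replicate 2, had a 95% Wilson interval that ended at 51.1%, and the lowest KO interval there began at 69.0% in replicate 1. The intervals take in the counting error of reads only, and not the spread between libraries. Copies of a molecule made by PCR could not be told apart here, and if present they make the intervals too narrow. Since this difference chose the locus, the gap between intervals is a description. Group means differed by 46.5, 46.4 and 37.5 points, with standard errors of 5.68, 7.58 and 4.31.

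Within this set of reads methylation fell from the first position to the third in every library. The third position was lower than the first by 10.5, 26.8 and 23.6 points in WT replicates 1, 2 and 3 and by 23.7, 37.4 and 26.7 points in KO replicates 1, 2 and 3. As a ratio, the third stood at 0.519, 0.321 and 0.370 of the first in WT and at 0.696, 0.527 and 0.671 in KO. The KO ratios were all above the WT ratios, the closest being 0.527 in KO replicate 2 and 0.519 in WT replicate 1, while the drops in points overlapped. Both measures come from this set of reads alone, whose difference chose the locus, and neither was tested.

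On the Il4i1 side the plus-strand set carried 106 to 151 reads per position and library and was nearly unmethylated. At 44840100 the values were 1.37%, 0% and 2.01% in WT and 11.1%, 4.69% and 2.44% in KO. At 44840111 they were 4.86%, 1.82% and 2.04% in WT and 13.2%, 1.56% and 1.64% in KO. KO replicate 1 was the highest library at both, and the other KO libraries stayed at or below 4.69%. At 44840130 the values were 3.42%, 0% and 2.03% in WT and 2.80%, 0.794% and 3.28% in KO. At 44840146 methylated reads were found in KO replicate 1 alone, at 0.943%. The zeros at these 4 positions rest on 108 to 151 reads, which allow levels of up to 2.78% to 1.99%.

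The minus-strand set, read with 93 to 148 reads, was somewhat more methylated. At 44840247 the values were 6.16%, 7.08% and 5.05% in WT and 17.9%, 10.1% and 12.5% in KO, without overlap. At 44840264 they were 5.41%, 0% and 6.00% in WT and 26.3%, 8.42% and 14.1% in KO, again without overlap. At both, KO replicate 1 was the highest library. The most methylated position of the Il4i1 side was 44840283, where the groups overlapped, with 19.9%, 19.3% and 29.3% in WT and 27.4%, 33.7% and 22.0% in KO. At 44840295 they also overlapped, with 4.79%, 0% and 5.38% in WT and 9.47%, 4.26% and 5.51% in KO. Added up, the minus-strand set gave 9.06% ± 2.47 for WT and 16.0% ± 3.73 for KO, without overlap, and the plus-strand set 1.45% ± 0.966 and 3.54% ± 3.02 (SD, n = 3 each), with overlap. For comparison, every KO library lay above every WT library in 12.7% of the 1 kb tiles tested across the genome.

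**Figure D2:**
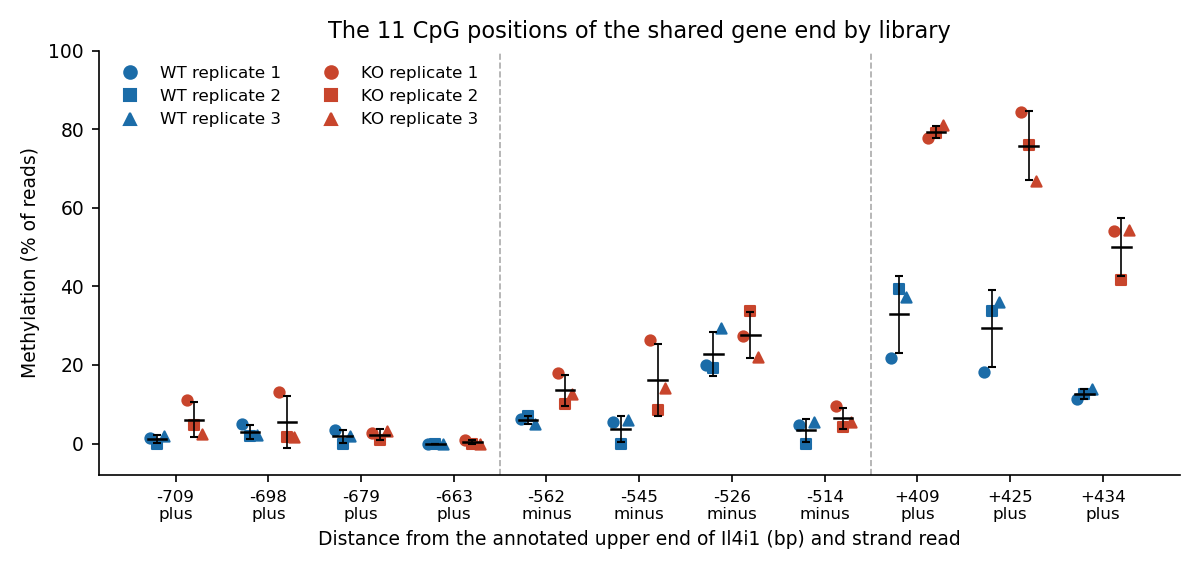
Methylation (percent of reads) of the 11 positions of the shared end, ordered by distance from the annotated upper end of Il4i1, with a point per library, short bars for group means and error bars for SD (n = 3 each). Dashed lines part the 3 sets of reads, and the right-hand set, in Tbc1d17, has all KO points between 41.6% and 84.5% and all WT points between 11.3% and 39.4%.

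The rest of the locus differed less. Its 68 positions, added up, were at 14.8%, 18.1% and 18.7% in WT replicates 1, 2 and 3 and at 19.6%, 19.8% and 19.2% in KO replicates 1, 2 and 3. The groups did not overlap here either, an order found in 12.7% of the 1 kb tiles tested across the genome, which are smaller stretches. The difference was 2.30 points (standard error 1.23), and 1.10 points without WT replicate 1. At 38 of the 68 positions the KO mean was above the WT mean, and at 11 of 11 at the shared end. Those 11 rest on 3 sets of reads and are not separate measurements. Across the series the KO mean was above at 58.9% of the 525213 positions tested in the genome-wide fit given below. That fit left out positions with a very low or very high mean, which the 68 include. Every KO library lay above every WT library at 6 of the 68 positions and at 6 of the 11, where 3.96% of all covered positions of the series did so. The reverse order was found at 2 of the 68 and 0 of the 11, against 2.26% of all covered positions. Since the locus was selected on this contrast, nothing is read from these shares.

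Along the locus, unmethylated and methylated stretches alternated. The 14 positions of inner Il4i1 (44839358 to 44839644) averaged 0.539% ± 0.341 for WT and 0.993% ± 0.607 for KO (SD, n = 3 each), and the groups overlapped. At the far end of Tbc1d17, 5 positions (44848312 to 44848429) were at 0.117%, 0.155% and 0.745% in WT and at 3.21%, 2.24% and 1.63% in KO. These groups did not overlap, at a difference of 2.02 points. Every KO library also lay above every WT library in 12.7% of the 83114 1 kb tiles tested across the genome, though this stretch was below the tested range. Between the ends of Tbc1d17, 6 positions (44845855 to 44846062), put together after their values had been seen, were highly methylated in both groups, with 92.0% ± 4.84 for WT and 92.9% ± 3.41 for KO. The next covered position after the 3 with the large difference, 44842213 in Tbc1d17, lies 1404 bp from the annotated end of Il4i1, against 434 bp for the last of the 3. No position between them was covered in all libraries. It was nearly unmethylated at 44842213, as was most of the Il4i1 side.

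The whole inner Tbc1d17 stretch gives another value. With 44842213 included, where methylation was 0% in each WT library and 1.39%, 1.30% and 7.41% in KO replicates 1, 2 and 3, the summed level was 75.02% ± 1.80 for WT and 82.7% ± 0.785 for KO, without overlap. That position had 97 to 148 reads in WT and 54 to 77 in KO, so that it weighed more in the WT sums. The part of coverage in that difference was not tested. The same order of groups was found in 12.7% of the 1 kb tiles tested across the genome.

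The 41 positions beyond Tbc1d17 all lie in Akt1s1. In the 1 kb tile from 44853001, 12 of them gave 66.5% ± 3.63 for WT and 73.2% ± 2.90 for KO. In the tile from 44854001 the other 29 gave 5.08% ± 1.38 and 6.19% ± 1.56 (SD, n = 3 each). The groups overlapped in both tiles.

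**Figure D3:**
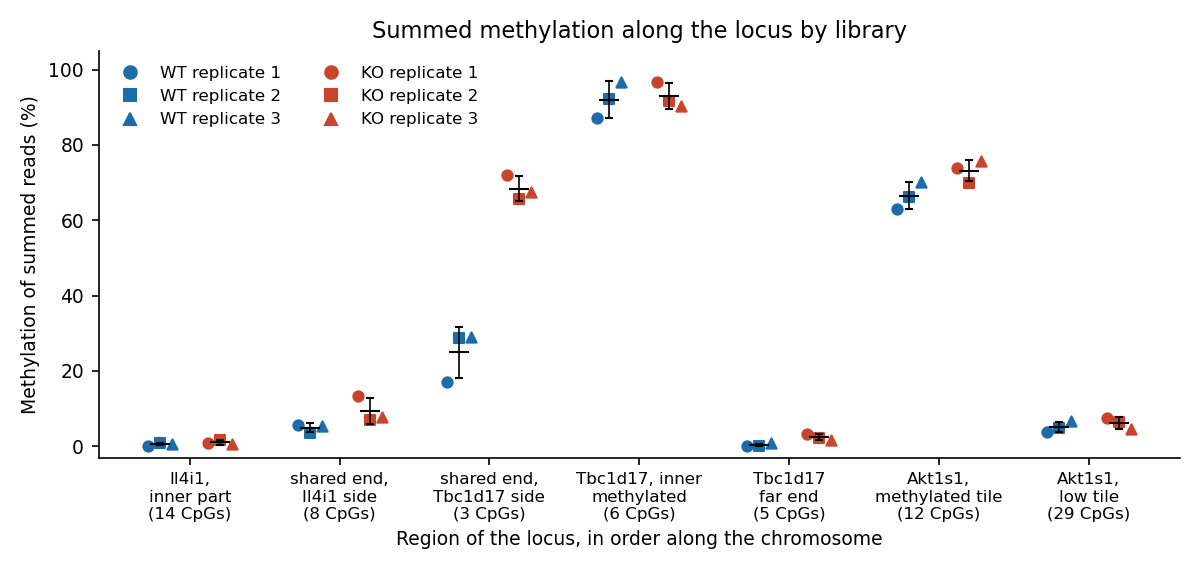
Methylation of reads summed over each region (percent), in order along the chromosome, with a point per library, horizontal marks for group means and error bars for SD (n = 3 each). The Tbc1d17 side of the shared end, at 24.9% in WT and 68.4% in KO, has the widest gap between groups of the 7 regions shown.

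Of single positions outside the shared end, the 3 with the largest higher KO means were 44831108 in Nup62 and Il4i1b, and 44853941 and 44853856 in Akt1s1. At 44831108, with 29 to 77 reads, methylation was 22.1%, 12.5% and 22.5% in WT and 41.4%, 59.6% and 44.9% in KO. At 44853941 it was 18.2%, 9.52% and 23.8% in WT and 35.0%, 42.1% and 39.3% in KO. The groups were apart at these positions, by means of 29.6 and 21.6 points. At 44853856 they overlapped, with 53.4%, 74.6% and 77.6% in WT and 97.7%, 66.5% and 87.9% in KO. The largest lower KO mean was at 44854036 in Akt1s1, with 20%, 22.7% and 30.1% in WT and 7.89%, 13.3% and 14.1% in KO. The next lower means, at 44845893 in Tbc1d17 and 44854228 in Akt1s1, differed from WT by -3.51 and -3.25 points, and those groups overlapped. The groups were apart at 44854036.

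Among the members, coverage came down to 22 reads, at 44854803, which read 0% in all 6 libraries. Another 49 positions of the locus were listed in some libraries only, 16 of them at the shared end. Of these 16, 10 were listed in WT replicate 2 alone and 5 in WT replicate 3 alone, at 10 to 13 reads. The other, 44841132 in Tbc1d17, lies 86 bp before the first of the 3 Tbc1d17 positions and was read on the minus strand. It was at 0% of 19 reads in WT replicate 1, 25.0% of 20 in WT replicate 3 and 100% of 18 in KO replicate 1. Further into Tbc1d17, 44842265 on the minus strand was listed in 5 libraries, with 7.14%, 0% and 0% in WT replicates 1, 2 and 3 and 25.6% and 31.7% in KO replicates 1 and 3. These 2 positions came from a search for KO values above all WT values, and the reverse was not searched. At 44839354 and 44854434, also listed in both groups, the lowest KO value stood at -5.26 and -17.1 points from the highest WT value. At 44854550, 44854557 and 44854599 every listed value was 0%.

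Coverage, which the choice of the locus did not use beyond its minimum, was compared as mean reads per position relative to each library's mean. At the shared end it was 1.24, 0.876 and 0.898 in WT replicates 1, 2 and 3 and 0.775, 1.08 and 1.03 in KO replicates 1, 2 and 3, a KO to WT ratio of 0.957 (exact two-sided permutation test, p = 0.8, adjusted over 4 regions 0.8). On the Tbc1d17 side it was 1.26, 0.619 and 0.897 in WT and 0.796, 1.54 and 1.03 in KO (ratio 1.21, exact permutation p = 0.6, adjusted p = 0.8). The groups overlapped in both. Over the rest of the locus the relative coverage was 1.15, 0.995 and 1.14 in WT and 1.18, 1.28 and 1.31 in KO, without overlap (ratio 1.15). The exact permutation p was 0.1 there, the smallest that 3 libraries against 3 allow, and 0.4 after adjustment.

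Across the genome the same contrast was fitted with a quasi-binomial model on methylated and unmethylated reads, whose dispersion was moderated as in limma. Features with a mean of 5% to 95% were tested, and a call needed an adjusted p below 0.05 with group means 10 points or more apart. In the locus 32 positions were tested and 3 called higher in KO, the Tbc1d17 set named above, where 0.284% of the 525213 positions tested were called higher. None was called lower, against 0.0105%. Of the 6 tiles tested in the locus the tile from 44841001, which holds the same 3 positions, was called higher, where 0.685% of 83114 tiles were, and 0 were called lower, against 0.00241%. It had the 12th largest rise of all tested tiles, and the other 5 differed by -0.37 to 6.72 points, against a median of 1.28 over all tested tiles. The shared end was called as an end of both genes, counted for each, where 0.135% of 3708 tested gene ends were called higher. Both entries are among the 5 ends behind that share. Nothing is read from these shares, since the contrast chose the locus.

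**Figure D4:**
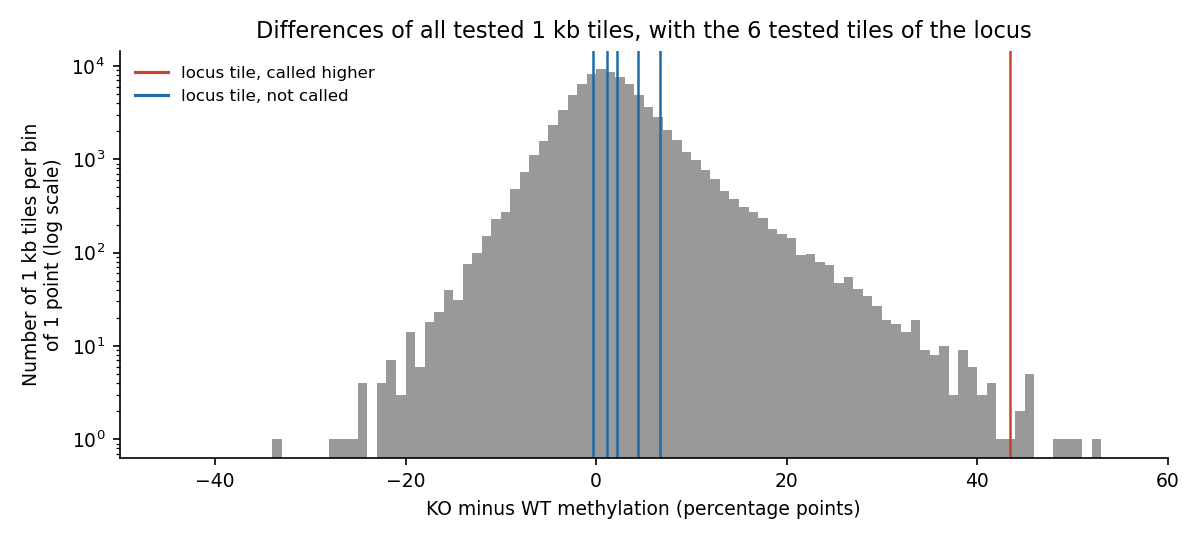
Number of tested 1 kb tiles (log scale) in each bin of 1 percentage point of KO minus WT methylation, with vertical lines at the 6 tested tiles of the locus. The red line is the tile of the Tbc1d17 side at 43.4 points and the 5 blue lines, from -0.37 to 6.72 points, lie in the bulk of all tiles.

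The calls depended on the model and on some libraries. Limma on log2 ratios, the model without moderation and a test of all covered features called 0 positions, 0 tiles and 0 gene ends of the locus. Over the whole genome limma also called 0 of each. The model without moderation called 20 positions, 0 tiles and 0 gene ends higher there, and the test of all covered features 104, 8 and 0. Without WT replicate 1, 1 of the 3 positions was called, and without KO replicate 1 or KO replicate 3, 2 were. The call of the shared end as a whole was lost without WT replicate 1, KO replicate 1 or KO replicate 2, while the tile stayed called without any of the 6 in turn, at differences of 39.5 to 45.5 points.

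Taken gene by gene, the differences were smaller. The Il4i1 body does not hold the 3 positions of the Tbc1d17 side. From 22 positions it averaged 1.69% ± 0.0578 for WT and 2.81% ± 0.462 for KO (SD, n = 3 each), below the tested range. Its groups did not overlap, with every KO library above every WT library, as in 15.4% of the 11852 gene bodies tested. The Tbc1d17 body, from 15 positions, had 28.7%, 39.1% and 22.1% in WT and 34.6%, 38.0% and 34.9% in KO, with overlap and a difference of 5.85 points. It was not called.

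The gene ends whose 6 library values were closest to those of the shared end were sought among 14431 other gene ends, by the root mean square difference over the 6 libraries. They were those of Gatm, which encodes an enzyme of creatine synthesis (4.32 points), of Zmynd10 and Rassf1, whose ends overlap and hold the same positions (5.14 points), of Dnaaf3, which encodes an assembly factor of ciliary dynein (5.22 points), and of Mfap2, a microfibril protein gene (5.53 points). The Gatm end averaged 12.9% ± 5.47 for WT and 27.4% ± 0.822 for KO (SD, n = 3 each). None of these ends was called.

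Genes related to the 2 members by function or position were put to the same test. Over all genes it called 5 of 3708 ends and 1 of 11852 bodies higher. The 5 ends include the shared end itself, counted for Il4i1 and for Tbc1d17. Of genes for enzymes that consume amino acids and of the aryl hydrocarbon receptor, which senses products of such enzymes, 4 gene ends and 11 gene bodies were tested without Il4i1 and 0 called, where 0.135% of ends and 0.00844% of bodies were called higher over all genes. The KO mean was higher in 4 of 4 ends and 8 of 11 bodies, against 66.6% and 69.0% over all, and the median differences were 4.63 and 0.966 points, against 1.03 and 1.09. The widest differences were in the end of Ddo, a D-aspartate oxidase gene, from 80.3% ± 2.58 to 87.9% ± 2.15, and in the body of Kmo, an enzyme gene of tryptophan breakdown, from 65.4% ± 7.56 to 75.9% ± 0.976 (SD over 3 libraries a group, quasi-binomial adjusted p = 0.393 and 0.526). The end of Dao, a D-amino acid oxidase gene, and the body of Ahrr, a repressor of the aryl hydrocarbon receptor, differed by 6.85 and 5.22 points.

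In interleukin-4 receptor and STAT6 signalling, 1 gene end and 9 bodies were tested and 0 called, where 0.135% of ends and 0.00844% of bodies were called higher over all genes. The KO mean was higher in 1 of 1 and 8 of 9, against 66.6% and 69.0% over all. The median difference over the bodies was 2.13 points, against 1.09 over all. The end was that of Stat6, the transcription factor downstream of the interleukin-4 receptor, with 51.9% ± 11.2 for WT and 69.3% ± 6.29 for KO (SD over 3 libraries a group, quasi-binomial adjusted p = 0.210). The bodies of Ptpn6, a phosphatase gene, and Cish, an inhibitor of cytokine signalling, differed by 9.25 and 6.71 points.

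Among TBC-domain proteins and their partners, 4 ends and 31 bodies were tested and 0 called, where 0.135% of ends and 0.00844% of bodies were called higher over all genes. The KO mean was higher in 1 of 4 and 22 of 31, against 66.6% and 69.0% over all. The median difference was -0.99 points over the ends and 0.838 over the bodies, against 1.03 and 1.09 over all genes tested. The body of Tbc1d8b averaged 83.1% ± 3.71 for WT and 69.8% ± 10.7 for KO, and that of Tbc1d23 averaged 87.3% ± 2.98 and 94.7% ± 0.555 (SD over 3 libraries a group, quasi-binomial adjusted p = 0.520 and 0.294). The ends of Tbc1d1 and Rab21 differed by -4.36 and 3.13 points.

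Of the other 11 protein-coding genes within 100 kb of the pair, 2 ends and 10 bodies were tested and 0 called, where 0.135% of ends and 0.00844% of bodies were called higher over all genes. The KO mean was higher in 2 of 2 and 7 of 10, against 66.6% and 69.0% over all. The median difference over the bodies was 3.90 points, against 1.09 over all. Bodies differed most in Med25, a Mediator subunit gene, from 38.6% ± 2.18 to 46.8% ± 1.57, and in Vrk3, a kinase gene, from 27.7% ± 4.78 to 34.5% ± 1.66 (SD over 3 libraries a group, quasi-binomial adjusted p = 0.228 and 0.426). The end of Fuz, a planar cell polarity gene, differed by 2.07 points. In the order given, the 4 groups held 1, 1, 0 and 0 ends and 1, 1, 4 and 3 bodies with an unadjusted p under 0.05, against 12.7% of all ends and 11.8% of all bodies tested. Limma on log2 ratios called 0 ends and bodies of these groups, and 0 over all genes tested. It gave an unadjusted p under 0.05 for 1, 1, 2 and 0 ends and 3, 0, 2 and 4 bodies, against 11.7% and 10.6% over all. With so few genes tested in each group, nothing is read from these counts.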

How the data were processed

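Per the file headers, the authors deposited 1 list of stranded CpG positions for each library, with a read count (coverage) and the percent C and percent T at each. Reads were aligned with Bismark to GRCm38, per the submitters' processing notes. The lowest deposited count was 10. The aligner's version and the read filters are not stated in these sources. Methylated and unmethylated reads were recovered from coverage and percent, and came out whole at 100% of positions within the rounding to 3 decimals. Region levels are summed methylated over summed methylated and unmethylated reads.

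The quasi-binomial model, on 4 residual degrees of freedom, used limma's moderation (3.58.1) rewritten in Python 3.11.15 with numpy 2.4.6 and scipy 1.17.1 and was tested on simulated data. Moderation added prior degrees of freedom drawn from all features tested, 87.4 for positions, 9.35 for tiles, 6.45 for gene ends and 4.84 for gene bodies. Tiles needed 3 positions, gene bodies 5. A gene end was the 1 kb on either side of the annotated end with more covered positions, at least 3, for 21900 protein-coding RefSeq genes. P-values were adjusted by Benjamini-Hochberg over all features tested. All listed genes matched the RefSeq table. Every position of the shared end was to be given, 3 positions with the largest rises and 3 with the largest falls elsewhere, and, in lists without a call, the 2 largest differences, of which 1 gene end is not reported here. Members and lists were chosen with earlier results of these data known. Labels do not say whether replicates were separate animals, and if they were not, the spread behind each p-value is technical. Alternatives were other weights, windows, strands, coverage minimums and models, a replicate block, and each library left out.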

Additional observations from a re-analysis of the deposited data

Results flagged for a closer look

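Positions of the locus that were not listed in all 6 libraries, and so entered no comparison, were searched for KO values above every WT value by at least 10 points, and 2 were found, both in Tbc1d17. At 44841132 the only listed KO value, 100% in replicate 1, was 75 points above the higher of 2 WT values, 25.0% in replicate 3. At 44842265 the lower of 2 KO values, 25.6% in replicate 1, was 18.4 points above the highest of 3 WT values, 7.14% in replicate 1. Neither difference was tested, and KO values below every WT value were not searched for.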

How the results depend on the processing

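The difference at the shared end, 18.1 points, kept its direction in every alternative run. It was 15.1 with CpGs weighted equally, 23.2 on plus-strand positions, 6.90 on minus-strand positions, 30.8 with a window of 500 bp, 4.44 on the Il4i1 side and 43.4 on the Tbc1d17 side. The narrower window leaves out 6 of the 8 Il4i1-side positions, and the sides and strands hold different positions by construction. Leaving out each library gave 17.2 to 20.002 points there and 1.10 to 3.07 for the rest of the locus. With sets of reads weighted equally it was 17.5, and with every listed position 18.3, both chosen after seeing the data. Leaving out each library gave 2.50 to 5.60 on the Il4i1 side and 39.5 to 45.5 on the Tbc1d17 side, also added after seeing the data. The coverage ratio at the shared end, 0.957, was 0.898 to 1.08 with each library left out, and above 1 without WT replicate 1 (1.08) or KO replicate 1 (1.05). It was 0.956 relative to the library median and 0.833 relative to the rest of the locus. The count of 3 called positions became 0 with limma, without moderation, with all covered positions tested and with a replicate block, and was 1 to 3 with each library left out. The 1 called tile became 0 with limma, without moderation and with all covered tiles tested, and was 1 with each library left out. Over the genome, limma and the model without moderation called 0 tiles, and the test of all covered tiles called 8 of 113541 higher. Counts of 0 called ends and bodies in the gene lists stayed 0 in all alternatives. Over all genes no alternative called more than 1 body or 11 ends higher. Limma, the model without moderation and the block called 0 of either over all genes. With so few calls anywhere, nothing is read from the list counts. Over the genome, 1489 positions were called higher, 20 without moderation and 104 with all covered positions tested, 0 with limma. Leaving out a library gave 485 to 3427, and 124 to 1150 tiles against 569. Gene ends called higher numbered 5, 9 at a coverage minimum of 20, 1 to 11 with each library left out and 0 with limma, without moderation, with all covered ends or with the block. The cause of these changes was not tested.

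Replicate numbers are shared between groups, but deviations of same-numbered libraries correlated at -0.0029 to 0.0072 over 525213 positions, and 4 of the 6 libraries correlated best with another number. The block left the shared end at 18.1 points with a standard error of 2.97, and gave 0 called positions and 886 higher tiles over the genome, where the tile in Tbc1d17 was still called. With 71 to 190 reads at the 3 Tbc1d17 positions, single values had 95% intervals up to 22.2 points wide.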
